A study of Mus musculus with 2 samples.

Results

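The genes of the protein subunits of the cytosolic and the mitochondrial ribosome were followed in TEa T cells. They were taken from the deposited table by symbol, as protein-coding rows named Rpl, Rps or Rplp with a number, Rpsa, Mrpl or Mrps, without the S6 kinases (Rps6k). This gave 183 of 35275 rows, 106 for the cytosolic ribosome (66 large and 40 small subunit) and 77 for the mitochondrial ribosome (48 large and 29 small subunit). The rule also takes Rps19bp1, the gene of a protein that binds a subunit, and 19 rows that carry a pseudogene name although they are typed as protein-coding.

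The cytosolic ribosome translates the messenger RNAs made in the nucleus. T cells multiply their ribosomes when antigen drives them to grow, under the control of MYC and of the kinase mTOR. Messengers of its subunits begin with a C and a run of pyrimidines, the terminal oligopyrimidine (TOP) tract, through which mTOR and LARP1 control their translation. The mitochondrial ribosome is built from subunits that are encoded in the nucleus and imported, and it translates only the membrane proteins of the respiratory chain and ATP synthase that the mitochondrial genome encodes.

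TEa cells are CD4 T cells of the C57BL/6 strain that all carry 1 transgenic T cell receptor, which recognises a peptide of the I-E alpha chain of BALB/c mice. The group titled Effector was TEa cells transferred into wild-type C57BL/6 mice with a BALB/c skin transplant. The group titled Exhaust was TEa cells transferred into CB6F1 mice, offspring of BALB/c and C57BL/6 parents. Both were sorted from spleen, and total RNA of each was sequenced as 1 library. Recipient strain, graft and amount of antigen cannot be told apart. The labels used here do not state the age of the mice, the time after transfer or how many mice were behind a library.

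The Effector library held 7844445 counted reads and the Exhaust library 8508129. Cd4, which defines these cells, had 9272 and 15463 reads, and Cd8a had 0 in both. Of 20 markers of other spleen cells, 5 reached the minimum of 50 reads over both libraries. Of those 5, Itgam and Klrb1c were higher in Exhaust, and Igj, Cd8b1 and Hba-a1 were lower. The 20 markers together held 451 reads in Effector and 580 in Exhaust, and Ms4a1 and Cd8a were among those at 0 in both libraries. Their part in the results below was not tested.

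With 1 library per group there is no replicate, no test and no p-value here. Each ratio is Exhaust over Effector after scaling, with a 95% exact (Clopper-Pearson) interval that covers counting error only. A gene counted as measured with at least 50 reads over both libraries, which 160 members passed (84 cytosolic and 76 mitochondrial), and a called gene differed by at least 2-fold with an interval that excludes equality. Levels are RPKM, reads scaled to gene length and library size, so that genes of different length can be compared. In bulk RNA, fewer cells of a type and less RNA per cell cannot be told apart.

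The cytosolic subunit genes were nearly level between the libraries. They took 174791 reads in Effector, 2.23% of the library (2.22 to 2.24), and 194452 in Exhaust, 2.29% (2.28 to 2.30). Summed, they were 1.03-fold higher in Exhaust (1.02 to 1.04). None of the 84 measured genes was called higher or lower at 2-fold, while 6.65% of all 9999 measured genes were called higher and 7.07% lower. Among the 6143 genes with at least 500 reads, 3.97% were called higher and 4.3% lower. The median log2 ratio was 0.07, against -0.002 over all measured genes, with 55 of 84 genes above 0 and 29 below.

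The mitochondrial subunit genes leaned the other way. They took 26101 reads in Effector (0.333%) and 26361 in Exhaust (0.310%), a summed ratio of 0.934 (0.918 to 0.95). The median log2 ratio was -0.13, with 25 of 76 genes above 0 and 51 below. Mrps6 was called higher at 2-fold, and no gene was called lower. The median of the mitochondrial genes thus lay 0.21 below that of the cytosolic genes on the log2 scale. For each read of a mitochondrial subunit gene there were 6.70 reads of a cytosolic one in Effector and 7.38 in Exhaust.

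Both sets were narrow. Among the cytosolic genes 65 of 84 (77.4%) lay within 1.2-fold of equality, and among the mitochondrial genes 50 of 76 (65.8%), against 42.5% of all measured genes. The log2 ratios spanned 0.24 from the lower to the upper quartile for the cytosolic and 0.34 for the mitochondrial genes, against 0.65 for all. The genes compared were not matched for read number, and ratios from few reads scatter more. Many small differences exceeded counting error: 34 cytosolic genes were higher and 11 lower by the interval alone, and 6 mitochondrial genes were higher and 27 lower. By that rule 31.3% of all measured genes were higher and 31.6% lower. Of the 6143 genes with at least 500 reads, 35% were higher and 34.6% lower. The cytosolic genes had 40.5% higher and 13.1% lower, and the mitochondrial genes 7.89% higher and 35.5% lower. The spread between animals is not known, and a difference beyond counting error may lie within it.

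**Figure D1:**
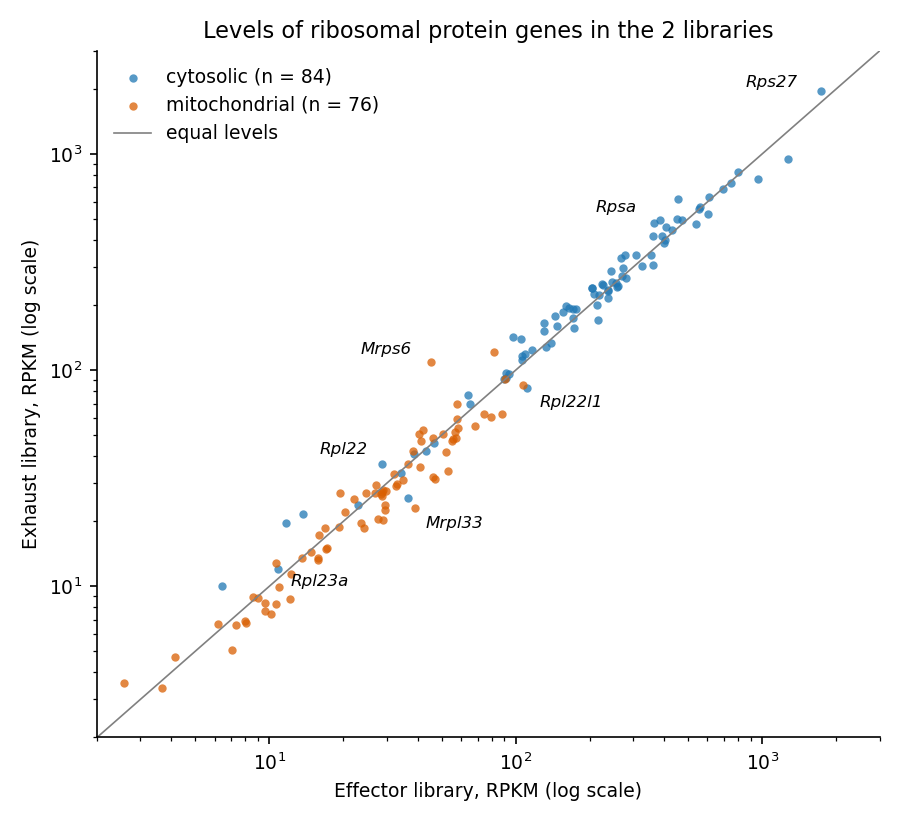
Level of each measured subunit gene in the Effector library (x axis) and the Exhaust library (y axis), both in RPKM on log scales, with cytosolic genes (n = 84) in blue, mitochondrial genes (n = 76) in orange and the line of equal levels. Cytosolic genes have a median of 217 RPKM in Effector and 228 in Exhaust, mitochondrial genes 28.6 and 26.9, and Mrps6 lies farthest above the line.

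The 2 ribosomes differed far more in level than either did between libraries. The median cytosolic gene stood at 217 RPKM in Effector and 228 in Exhaust, with a range of 6.44 to 1728 and 10.1 to 1946. The median mitochondrial gene stood at 28.6 and 26.9 RPKM, with a range of 2.57 to 107 and 3.39 to 122. The median cytosolic level was thus 7.57 times the mitochondrial one in Effector and 8.49 times in Exhaust. The order of genes within each ribosome was almost the same in both libraries: Pearson's r of the log2 levels across genes was 0.99 for 84 cytosolic and 0.97 for 76 mitochondrial genes, and genes of 1 library are not independent replicates.

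**Figure D2:**
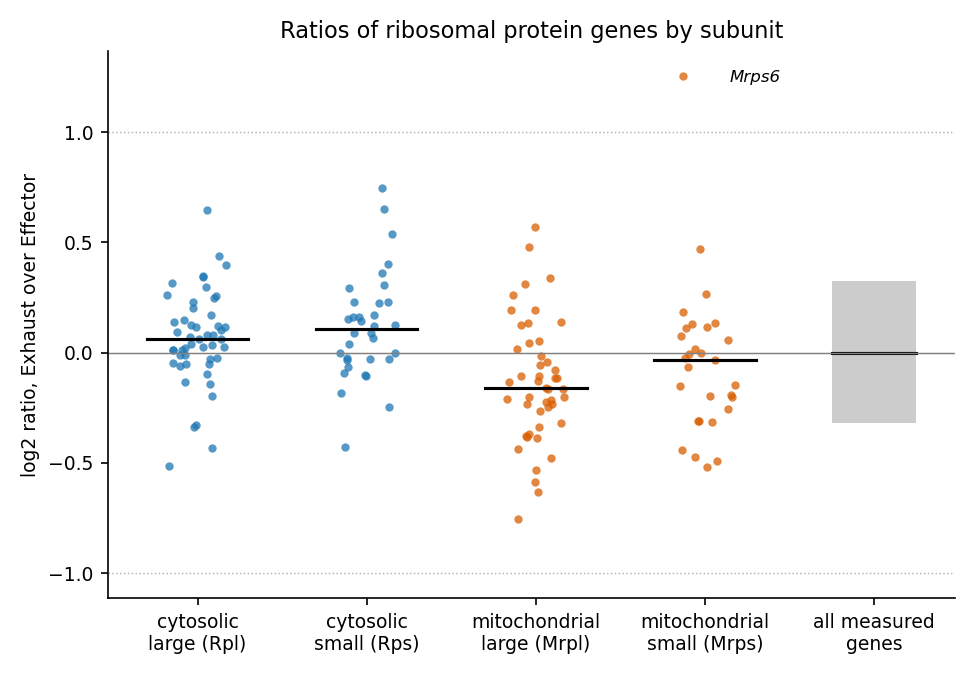
Log2 ratio of Exhaust over Effector (y axis) for each measured gene, grouped by subunit, with black lines at the medians, dotted lines at 2-fold, and a grey box from the lower to the upper quartile of all 9999 measured genes. The medians are 0.06 and 0.11 for the cytosolic and -0.16 and -0.03 for the mitochondrial large and small subunit.

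Subunits were assigned by symbol alone, which can differ from a protein's place in the ribosome. Mrps18a, for example, is counted here with the small subunit. By subunit, the cytosolic large subunit had a median log2 ratio of 0.06 (50 measured genes) and the small subunit 0.11 (34 genes). In the mitochondrial ribosome the large subunit had a median of -0.16, with 13 genes above 0 and 34 below. The small subunit had a median of -0.03, with 12 above and 17 below. The large-subunit genes summed to a ratio of 0.908 (0.889 to 0.928), and the small-subunit genes to 0.981 (0.953 to 1.01), an interval that holds equality. The small-subunit sums, 9240 reads in Effector and 9803 in Exhaust, include 302 and 780 reads of Mrps6, whose overlap with another gene is described below. The sum was not recomputed without Mrps6, so it does not show that the other small-subunit genes were level.

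The annotated start sites of the 2 ribosomes' genes differed in sequence. RefSeq promoters (GRCm38.p6, 250 bases before to 50 after each start) were found for 134 of the 183 members, with 78 windows for 66 cytosolic genes and 74 windows for 68 mitochondrial genes. The 30 bases around the annotated start are shown for the most abundant cytosolic gene (Rps27), for Rps6, whose protein is the substrate of the S6 kinases, for the cytosolic genes with low and high ratios (Rpl35, Rps21), and for the pair Rpl22 and Rpl22l1 and the mitochondrial gene Mrps6. The start is base 16 of each, and capitals mark an unbroken run of pyrimidines that begins with a C at the start.
Rps27: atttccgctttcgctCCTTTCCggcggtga
Rps6: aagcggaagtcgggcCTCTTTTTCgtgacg
Rpl35: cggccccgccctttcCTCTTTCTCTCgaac
Rps21: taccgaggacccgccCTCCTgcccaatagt
Rpl22l1: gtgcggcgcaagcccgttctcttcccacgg
Rpl22: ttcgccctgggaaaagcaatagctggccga
Mrps6: tgctttcgccgtccgggagctgaccggccg

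They lie on the minus strand at chr3:90213634-90213663 (Rps27), chr4:86857353-86857382 (Rps6) and chr2:39005117-39005146 (Rpl35), and on the plus strand at chr2:180257364-180257393 (Rps21), chr3:28805493-28805522 (Rpl22l1), chr4:152325711-152325740 (Rpl22, the later of its 2 starts) and chr16:92058321-92058350 (Mrps6). Rps21 also has a second annotated start without such a run. A C at the start followed by at least 4 pyrimidines was present in 14 of 78 cytosolic windows (17.9%), in 0 of 74 mitochondrial windows and in 2.51% of all 32851 promoter windows. A run of at least 8 pyrimidines between 10 bases before and 12 after the start was present in 28.2%, 6.76% and 8.27%. An annotated start can be off by a few bases, which moves the first count more than the second.

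Ratios of cytosolic genes with and without the start-site run covered overlapping ranges. The 14 cytosolic genes with it had a median log2 ratio of 0.12 and ranged from -0.51 to 0.65, and the 48 measured genes with a window but without it had a median of 0.05 and ranged from -0.43 to 0.75. Both the lowest ratio of all cytosolic genes (Rpl35) and 1 of the highest (Rps21) belong to genes with the run.

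A further motif was common to both ribosomes. CCGGAAG, the core bound by ETS factors such as GABPA, was searched on both strands (CTTCCGG on the other). It was present in 34.6% of cytosolic, 33.8% of mitochondrial and 8.86% of all windows. It is shown in capitals for 2 cytosolic genes and for mitochondrial genes with low and high ratios.
Rps21: agtaccctgacCCGGAAGcacttaccgagg
Rps6: ttaatctacgcCCGGAAGtaacgcccctct
Mrpl33: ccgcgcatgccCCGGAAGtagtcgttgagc
Mrpl27: gtccgcaagacCCGGAAGtagatctatccc
Mrpl52: caagatgtcggCTTCCGGttttcccggcag

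These lie at chr2:180257342-180257371 (Rps21, plus strand), chr4:86857440-86857469 (Rps6, minus strand), chr5:31613937-31613966 (Mrpl33, plus strand), chr11:94653725-94653754 (Mrpl27, plus strand) and chr14:54426851-54426880 (Mrpl52, plus strand). Measured mitochondrial genes with the motif had a median log2 ratio of -0.04 (24 genes) and those without it -0.15 (43 genes). The cytosolic genes had 0.09 with it (25 genes) and 0.08 without it (37 genes). The E-box CACGTG, a MYC-binding sequence that reads the same on both strands, was in 10.3% of cytosolic, 9.46% of mitochondrial and 7.15% of all windows. These are matches of letters and not measured binding.

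Among the cytosolic genes, the most abundant per kilobase was Rps27, a small-subunit gene, at 1728 RPKM in Effector and 1946 in Exhaust. Rpl32, a large-subunit gene, stood at 961 and 766 RPKM, and Rps14, whose loss in humans is linked to an anaemia with deleted chromosome 5q, at 747 and 732. Beyond counting error, Rps27 was higher in Exhaust (1.13, 1.08 to 1.18) and Rpl32 lower, while the interval of Rps14 holds equality (0.981, 0.939 to 1.02).

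The stalk of the large subunit recruits the elongation factors and is made of Rplp0, Rplp1 and Rplp2. Rplp0, often used as a reference gene, had 5980 reads in Effector and 6521 in Exhaust, a ratio of 1.01 (0.973 to 1.04). Rplp1 had 1776 and 2599 reads, a ratio of 1.35 (1.27 to 1.44). Rplp2 had 1332 and 1573 reads, a ratio of 1.09 (1.01 to 1.18). The 3 stalk genes thus moved by unequal amounts, with Rplp1 apart and Rplp0 at equality.

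Other small-subunit genes with high ratios were Rps21, with 369 and 580 reads (1.45, 1.27 to 1.66), and Rpsa, the gene of the subunit that doubles as the laminin receptor, with 5313 and 7592 reads (1.32, 1.28 to 1.37). The 2 largest ratios rested on few reads. Rps19bp1 had 76 and 138 reads (1.68, 1.26 to 2.25). Rps27rt, a retrogene of Rps27, had 40 and 68 (1.57, 1.05 to 2.38), and reads of Rps27 and Rps27rt could be exchanged in counting. Rpl23a-ps3 had 26 and 44 reads, and its interval holds equality (0.942 to 2.65). Rps19bp1 and Rps27rt were the 2 cytosolic members higher by at least 1.5-fold, a size that 13.7% of all measured genes reached in that direction.

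Low cytosolic ratios were seen in large-subunit genes, Rpl22l1 among them, and in Rps6. Rpl35 had 272 reads in Effector and 206 in Exhaust, 1.43-fold lower (1.19 to 1.72). Rpl13a, known for silencing translation of inflammatory messengers after its release from the ribosome, had 2505 and 2148 reads, 1.26-fold lower (1.19 to 1.34). In GENCODE M21, 621 of its 2114 exon bases are shared on the same strand with Gm45713. That gene had 644 and 236 reads, a ratio of 0.339 (0.291 to 0.394), and its part in the Rpl13a value was not tested. Rpl32 had 3901 and 3364 reads, 1.254-fold lower (1.2 to 1.31). In the small subunit, Rps6 had 3206 and 2928, 1.18-fold lower (1.13 to 1.246). No cytosolic gene was lower by 1.5-fold, which 13.6% of all measured genes were, and 10.2% of those with at least 500 reads.

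Rpl5 and Rpl11, which join the 5S RNA and can bind MDM2, were at 2227 and 2309 reads (0.959, 0.904 to 1.02) and at 1121 and 1451 reads (1.2, 1.11 to 1.29). Their intervals do not overlap. In GENCODE M21, 953 of the 3920 exon bases of Rpl5 are shared with Fam69a on the opposite strand. Fam69a had 1002 and 528 reads, a ratio of 0.487 (0.438 to 0.542). The strand setting of the counts is not recorded, and the part of Fam69a in the Rpl5 value was not tested.

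**Figure D3:**
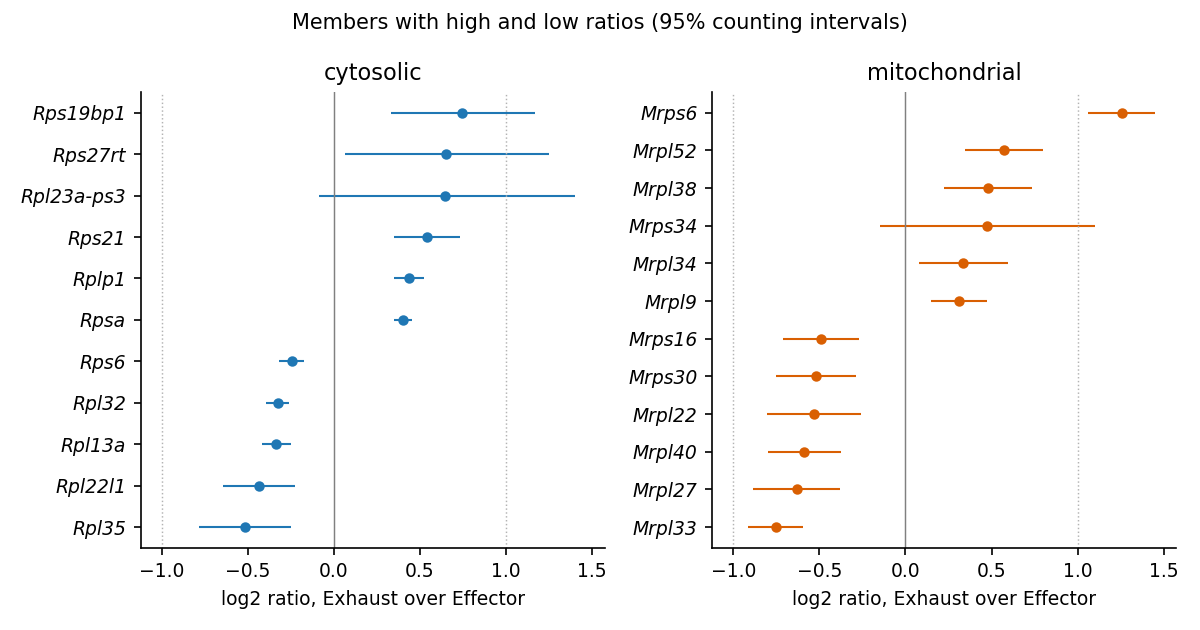
Log2 ratio of Exhaust over Effector (x axis) with its 95% exact counting interval for measured genes with high and low ratios in the cytosolic (left) and the mitochondrial ribosome (right), with dotted lines at 2-fold. Mrps6 is the 1 gene beyond 2-fold, and the intervals of Rpl23a-ps3 and Mrps34 include 0.

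In the mitochondrial ribosome, Mrps6, a small-subunit gene, stood apart. It had 302 reads in Effector and 780 in Exhaust, or 45.4 and 109 RPKM, a ratio of 2.39 (2.09 to 2.74). The gene lies on mm10 chromosome 16 from 92058270 to 92112227, plus strand. In the GENCODE M21 annotation it shares 159 exon bases on the same strand with Slc5a3, the gene of a myo-inositol transporter, which had 95 and 612 reads, a ratio of 5.96 (4.79 to 7.47). How reads in the shared exon were counted is not recorded in the labels, and the part of Slc5a3 in the Mrps6 value was not tested. Without the members whose exons overlap another gene, no mitochondrial member was called.

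Large-subunit genes with high ratios followed. Mrpl52 had 265 and 426 reads, a ratio of 1.49 (1.27 to 1.74). At 81.9 RPKM in Effector and 122 in Exhaust it was the most abundant mitochondrial subunit gene per kilobase in Exhaust, while Mrpl42 was first in Effector (107 and 85.2 RPKM). Mrps21 was level, at 90.2 and 91.3 RPKM, and Mrps16 stood at 87.7 and 62.4 RPKM. Mrpl38 had 215 and 324 reads (1.39, 1.17 to 1.66), Mrpl34 213 and 291 (1.26, 1.05 to 1.51) and Mrpl9 529 and 710 (1.24, 1.11 to 1.39). Among small-subunit genes Mrps34 had 38 and 57 reads, a ratio of 1.39 whose interval holds equality (0.904 to 2.15).

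The 3 mitochondrial genes lower by at least 1.5-fold, of 76 measured and against 13.6% of all measured genes, all belong to the large subunit. Mrpl33 had 840 reads in Effector and 539 in Exhaust, 1.69-fold lower (1.51 to 1.88). Mrpl27 had 314 and 219 reads, 1.55-fold lower (1.3 to 1.85), and Mrpl40, which lies in the region deleted in DiGeorge syndrome in humans, had 439 and 316, 1.503-fold lower (1.3 to 1.74). Mrpl33 had the most reads of these 3 genes but the lowest level per kilobase, at 39.0 RPKM in Effector and 23.1 in Exhaust. Mrpl27 stood at 52.9 and 34.1 RPKM, and Mrpl40 at 47.2 and 31.4. Mrpl22, Mrps30 and Mrps16 followed, at 1.45-fold (1.2 to 1.75), 1.43-fold (1.22 to 1.68) and 1.41-fold lower (1.21 to 1.64).

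Paralogue variants were compared by their share of the reads of a pair. Of 12 pairs listed, 11 had both genes among the members. In 3 of these the variant was at 0 reads in both libraries: the muscle variant Rpl3l and the variants Rpl10l and Rpl39l, known from testis. For Rpl3l a count of 0 allows a share of up to 0.0575% of the pair in Effector and 0.0550% in Exhaust, for Rpl10l 0.154% and 0.114%, and for Rpl39l 0.363% and 0.369%. In the other 8 pairs the variant had reads, and in 1 of the 8 the intervals of its shares did not overlap. Overlapping intervals do not show equal shares, and no such count was made for other gene pairs. By another measure, the ratio of single genes, 62.9% of all measured genes had an interval that excludes equality.

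That pair was Rpl22 and Rpl22l1. Rpl22 is a large-subunit protein required for the development of alpha beta T cells, and Rpl22l1 is its paralogue, whose messenger Rpl22 is known to repress. Rpl22l1 (chromosome 3, 28805436 to 28807352, plus strand) had 427 reads in Effector and 342 in Exhaust, 1.35-fold lower (1.17 to 1.56). Rpl22 (chromosome 4, 152325742 to 152334071, plus strand) had 464 and 639 reads, a ratio of 1.27 (1.13 to 1.44). The share of Rpl22l1 in the pair was 47.9% (44.6 to 51.3) in Effector and 34.9% (31.9 to 37.9) in Exhaust, 13.1 percentage points lower. Per kilobase Rpl22l1 was the higher of the 2 in both libraries, at 111 and 82.3 RPKM against 28.8 and 36.7 for Rpl22. None of their annotated starts carries the pyrimidine run shown in capitals above, which must begin with a C at the start. The Rpl22l1 window does meet the second rule, with a run of at least 8 pyrimidines just after its annotated start.

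**Figure D4:**
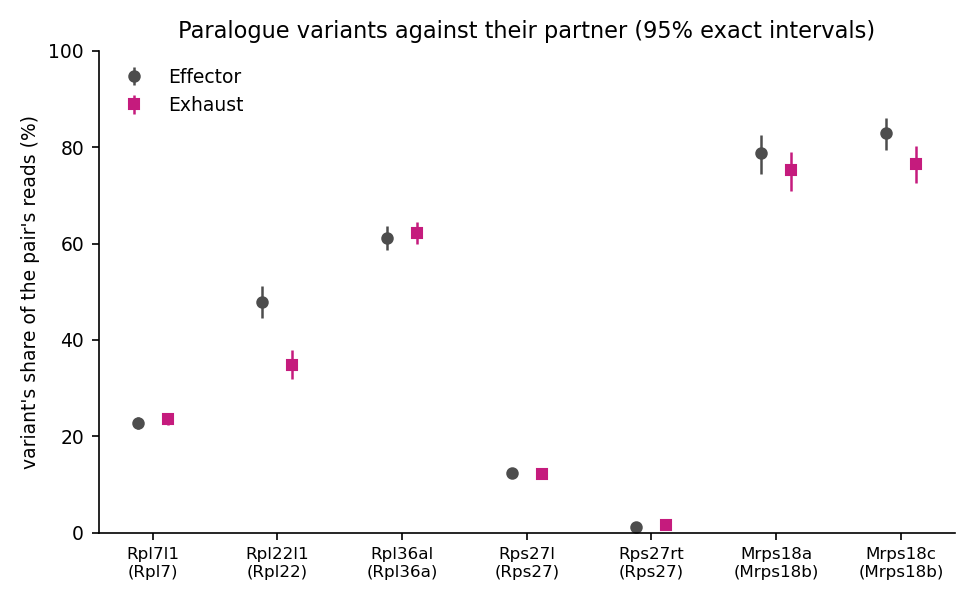
Share of a pair's reads that fell on the variant (y axis, percent, from 0) in the Effector (grey circles) and Exhaust (magenta squares) library, with exact 95% intervals and the partner gene in brackets. Rpl22l1 is at 47.9% and 34.9% with intervals apart, and the intervals of the other pairs overlap.

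Rpl36al, an intronless copy of Rpl36a, held 61.1% of its pair's reads in Effector and 62.2% in Exhaust. Rpl7l1 held 22.7% (954 reads) and 23.6% (1016 reads) beside Rpl7. Rps27l, a target of p53, held 12.5% (493 reads) and 12.1% (582 reads) beside Rps27. These 3 well-read variants kept nearly the same share. Rps27rt held 1.14% and 1.59% beside Rps27, and Rps4l 0.650% and 0.495% beside Rps4x, from 14 and 11 reads.

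Mammals have 3 genes of the Mrps18 family, whose products occupy different places in the mitochondrial ribosome, that of Mrps18a in the large subunit despite its name. Mrps18c had 439 and 383 reads, 1.24-fold lower (1.08 to 1.43), Mrps18b had 90 and 117 (1.2, 0.905 to 1.6), and Mrps18a had 333 and 354 (0.983, 0.844 to 1.14). Beside Mrps18b, the share of Mrps18c was 83.0% (79.5 to 86.1) in Effector and 76.6% (72.6 to 80.2) in Exhaust, and that of Mrps18a 78.7% and 75.2%.

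Of the 183 members, 23 stayed under 50 reads. They were 17 of the 19 rows with pseudogene names, the variants Rpl3l, Rpl10l, Rpl39l and Rps4l, and the genes Rpl24 and Mrpl53. Rpl24, a core subunit gene, had 9 and 5 reads, and Mrpl53 had 0 in both libraries. In GENCODE M21, exons of Mrpl53 share 695 of their 790 bases with Gm42688 on the same strand, a gene that had 69 and 81 reads. Rpl23a, also a core subunit gene, had 50 and 60 reads, or 10.8 and 12 RPKM. In all, exons of 70 members overlapped those of another gene, 35 of them on the same strand, Rpl24 among these. The part of shared reads in the low counts was not tested. The 19 rows with pseudogene names held 241 and 276 reads together, most of them in Rpl9-ps6 (124 and 140).

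**Figure D5:**
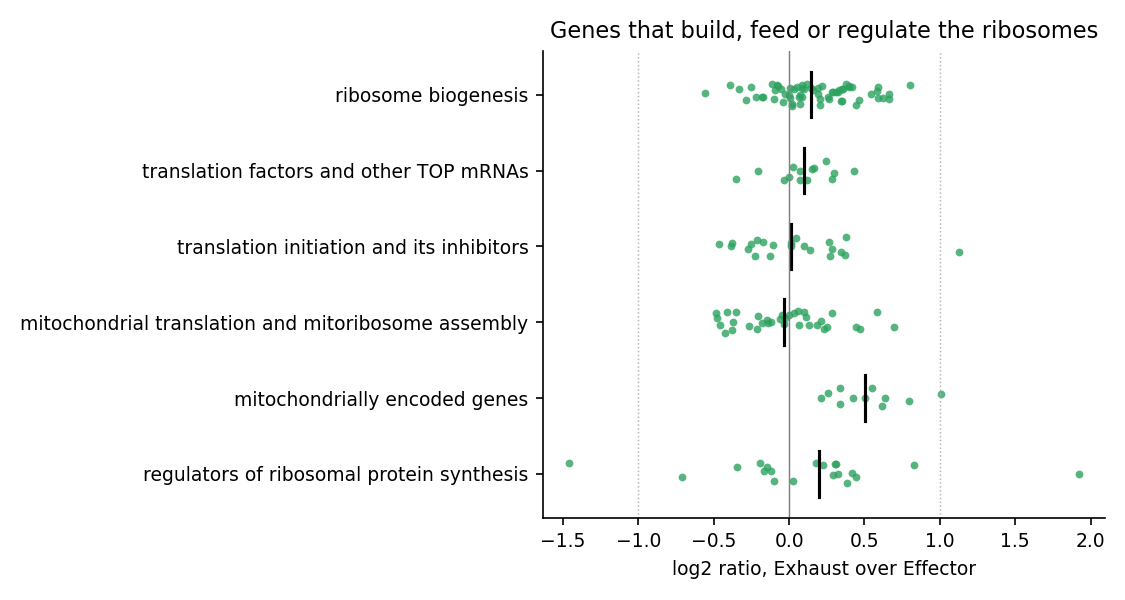
Log2 ratio of Exhaust over Effector (x axis) for the measured genes of 6 related lists, with black lines at the medians and dotted lines at 2-fold. All 11 measured mitochondrially encoded genes lie to the right of 0, and the medians of the other lists lie between -0.03 and 0.20.

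Genes that build, feed or regulate the ribosomes were counted from fixed lists. Of 63 genes of ribosome biogenesis, 46 lay above 0, with a median log2 ratio of 0.15. None was called at 2-fold, against 6.65% of all measured genes called higher and 7.07% called lower. By at least 1.5-fold 6 were higher and 0 lower. The 6 are 9.52% of the list, below the 13.7% of all measured genes that were higher by that size. Ddx21, a nucleolar RNA helicase, had 671 and 1265 reads (1.74, 1.59 to 1.92). Polr1b, a subunit of RNA polymerase I, had 384 and 659 (1.59, 1.4 to 1.8). Gar1, a protein of the H/ACA particles that guide pseudouridylation, had 129 and 221 (1.58, 1.27 to 1.98), and the others were Rrp12, Nop10 and Nop2.

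Some subunits of the 2 ribosomes have other names. Fau, which encodes a small-subunit protein fused to a ubiquitin-like one, had 1051 and 1287 reads (1.13, 1.04 to 1.23), and Gnb2l1, now named Rack1, had 2580 and 3111 (1.11, 1.06 to 1.17). Of 5 measured mitochondrial subunit genes with other names, 1 was lower by 1.5-fold (20% of the 5, against 13.6% of all measured genes). This was Ict1, a release factor built into the large subunit, with 295 and 197 reads, 1.62-fold lower (1.35 to 1.95).

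Of 14 translation factors and other genes with TOP messengers, none differed by 1.5-fold, and the median was 0.10. Of all measured genes, 13.7% were higher and 13.6% lower by that size. Eif4b, an initiation factor and S6 kinase substrate, had 1304 and 1899 reads (1.35, 1.254 to 1.45), and Eif3e had 1920 and 1630, 1.27-fold lower (1.19 to 1.36). Of 22 measured initiation factors and inhibitors, 1 was called higher and 0 lower, with a median of 0.01. The 1 is 4.55% of the list, against 6.65% of all measured genes. Eif4ebp2, a repressor of cap-dependent initiation that mTOR inactivates, had 268 reads in Effector and 634 in Exhaust (2.19, 1.89 to 2.53).

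By median, the messengers that the mitochondrial ribosome translates lay on the other side of 0 from those of its own subunits. Of the measured subunit genes, 25 of 76 nevertheless lay above 0. All of these values are RNA counts, and no protein was measured. All 11 measured mitochondrially encoded genes lay above 0, with a median log2 ratio of 0.51, and together they had 31721 reads in Effector and 48376 in Exhaust (1.41, 1.39 to 1.43). Of the 11, mt-Nd3, with 46 and 100 reads, was called higher at 2-fold (2.01, 1.4 to 2.92). That is 9.09% of the 11, against 6.65% of all measured genes. By 1.5-fold 4 were higher (36.4%, against 13.7% of all measured genes). The 35 genes of mitochondrial translation and ribosome assembly had a median of -0.03, and Gfm2, a factor that recycles mitochondrial ribosomes, was the 1 beyond 1.5-fold, at 427 and 748 reads (1.62, 1.44 to 1.83). The 1 is 2.86% of the list, against 13.7% of all measured genes higher and 13.6% lower by that size. The mitochondrial ribosomal RNAs were not analysed here.

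Of 20 measured regulators of ribosomal protein synthesis, 1 was called higher and 1 lower, and the median was 0.20. Each is 5% of the list, against 6.65% of all measured genes called higher and 7.07% called lower. Max, the partner that MYC needs to bind DNA, had 282 and 1158 reads (3.80, 3.33 to 4.34), while Myc had 531 and 711 (1.24, 1.1 to 1.39). Mtor had 326 and 625 reads (1.77, 1.55 to 2.03). Larp1, which holds TOP messengers back when mTOR is off, had 1454 and 1466 (0.932, 0.866 to 1.003). Rps6ka2, a kinase of the RSK family, had 135 and 53 reads, 2.76-fold lower (1.99 to 3.86).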

How the data were processed

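Total RNA of 2 libraries of sorted spleen TEa cells, 1 per group, was compared. The deposited file gives, for each gene, unnormalized whole-number counts made by the authors, with its length and position. Per the submitters' processing notes, STAR 2.6 and build mm10 were used. Which counter was used, with which strand setting and annotation, and where reads common to several genes went, is not given in the sources used here. Per the labels, RNA was taken up in Trizol and made into low-input libraries. No molecular identifiers are recorded, so PCR copies cannot be removed, which would make the intervals too narrow.

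Columns were mapped to samples by their titles. Counts were scaled by trimmed mean of M-values (TMM) sizes from edgeR 4.0.16 in R 4.3.3, fitted on genes with at least 50 reads. This made Exhaust 1.08 times as deep as Effector. RPKM used the length in the deposited table. Intervals of ratios and shares are 95% exact Clopper-Pearson intervals (scipy 1.17.1), and a limit for 0 reads uses 3 reads. They cover counting error only. The rule was tested on simulated data. Exon overlap was read from GENCODE M21, in which 182 of 183 members had an identifier, 106 with the same span. Promoters came from the RefSeq table for GRCm38.p6.

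The members, the lists, the paralogue pairs and the naming rule were chosen with earlier results of these data known. Named were the 6 highest and 6 lowest ratios and the 5 highest levels per kilobase of each ribosome, called members, the listed pairs, members under 50 reads (those with pseudogene names as a count) and up to 3 genes of each list, those farthest from equality. A few genes under this rule are left unreported. Rplp0, Rplp2, Rpl5, Rpl11, Rpl9-ps6, Rpl23a, Slc5a3, Fam69a, Myc, Larp1 and the genes that complete a count were named after their values were seen. Alternatives used other scalings (total counts, the upper quartile or DESeq2 1.42.0 size factors), a read minimum of 1 or 500, other size rules, thinned reads and fewer or more rows.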

Additional observations from a re-analysis of the deposited data

Results flagged for a closer look

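Rows of other gene types that carry ribosomal protein names, almost all of them pseudogenes, lie outside the comparison and still had reads. These 224 rows held 1257 reads in Effector and 1595 in Exhaust, above the limit of 3 reads that a count of 0 allows. At the minimum of 50 reads 17 were measured, with a median log2 ratio of 0.29. Rpl14-ps1 had 100 and 109 reads, Rpl21-ps15 78 and 125, and Rpl38-ps2 41 and 81. Rpl37rt, a retrogene of Rpl37 that the table types as a pseudogene, had 29 and 52.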

How the results depend on the processing

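Of 149 values recomputed under alternatives, 139 stayed within their limits and 10 moved. The limit of a median was drawn from the spread across its genes, which are not replicates. A count of called genes moved if it changed by more than 1.5-fold, and a share if it left its combined counting intervals. A difference of 2 medians cannot change with scaling, so those values were fixed in advance. The cytosolic median log2 ratio ranged from 0.04 to 0.10, the mitochondrial one from -0.15 to -0.10, and their difference from -0.21 to -0.14. The share of Rpl22l1 was recomputed under 2 alternatives, thinned reads and added pseudogene rows. It was 13.0 to 13.2 percentage points lower in Exhaust (-13.0 to -13.2). A share within a library cannot change with scaling. With a read minimum of 1, 1 cytosolic member was called (Rpl10-ps3, 12 and 27 reads). At 1.5-fold, 2 cytosolic and 4 mitochondrial members were called. With the interval wholly beyond 1.5-fold 2 mitochondrial members were called (1 higher, 1 lower), and without members whose exons overlap another gene, an alternative chosen after seeing the data, 0 were called, since this leaves out Mrps6. The cytosolic subunit genes with other names had a median of 0.19 with DESeq2 size factors, 0.18 with upper-quartile scaling and 0.18 with a read minimum of 1. Signs changed for values near 0. The mitochondrial subunit genes with other names went from -0.01 to 0.01 with DESeq2 size factors and to 0.009 with a read minimum of 500, and the median of all genes went from -0.002 to 0.02 with DESeq2 size factors and to 0.01 with the upper quartile. The cytosolic large minus small subunit median went from -0.04 to 0.02 without overlapping members; the cause was not tested. No paired analysis was possible because each group has 1 library and the labels give no replicate numbers, and for the same reason no library could be left out.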
